A study of Mus musculus with 10 samples.

Results

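The inner blood-retina barrier and its endothelium were followed in 10 genes, Cldn5, Ocln, Tjp1, Cdh5, Pecam1, Mfsd2a, Slc2a1, Abcb1a, Slco1c1 and Plvap. They were chosen by name, as junction, transporter and endothelial genes, with earlier results of these data known. By symbol in GENCODE release M21 they were matched to 10 of the 57010 gene rows of the count table. All 10 passed the filter on low counts, as did 15539 genes in all. RNA was sequenced from whole retinas of mice that were 6 to 8 weeks old when they entered the study and had their retinas taken on day 14 after intravitreal delivery of a vector. In one group 5 mice received AAV2-GFP, and in the other 5 mice received AAV206-GFP. AAV2 and AAV206 are adeno-associated virus vectors, here carrying green fluorescent protein (GFP). Both groups were injected, so every difference is between 2 vectors and not from an uninjected retina, which was not analysed here. The labels name no strain, sex, promoter or vector dose. The retina came whole, so fewer cells of a type and less RNA per cell cannot be told apart in any level below.

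Retinal capillaries are lined by endothelial cells that are sealed by tight junctions and carry few vesicles, and pericytes and glial endfeet surround them. Nutrients therefore enter the retina through dedicated transporters, and pumps return foreign compounds to the blood. Norrin from Müller glia acts through the receptor Fzd4 on the endothelium to keep this state, in which Cldn5 is high and Plvap, a protein of leaky vessels, is low. A second barrier, outside the retina, is formed by tight junctions of the retinal pigment epithelium (RPE), which lies on fenestrated choroidal vessels.

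Cldn5 and Slco1c1 were lower with AAV206-GFP, and the remaining 8 genes did not pass the test. Cldn5, the main claudin of barrier endothelium, stood at 64.3% of its AAV2-GFP level (95% interval 50.8% to 81.4%), and Slco1c1, which carries thyroid hormone and organic anions, at 71.1% (58.9% to 85.8%). The test was edgeR's quasi-likelihood test with Benjamini-Hochberg adjustment over all 15539 genes and a threshold of 0.05. By this rule 11.2% of all tested genes passed, 5.95% as higher and 5.3% as lower. The count of 2 among 10 genes stands beside that share and is not read as particular to barrier genes. The median log2 fold change of the 10 was -0.15, beside -0.0095 over all tested genes.

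**Figure D1:**
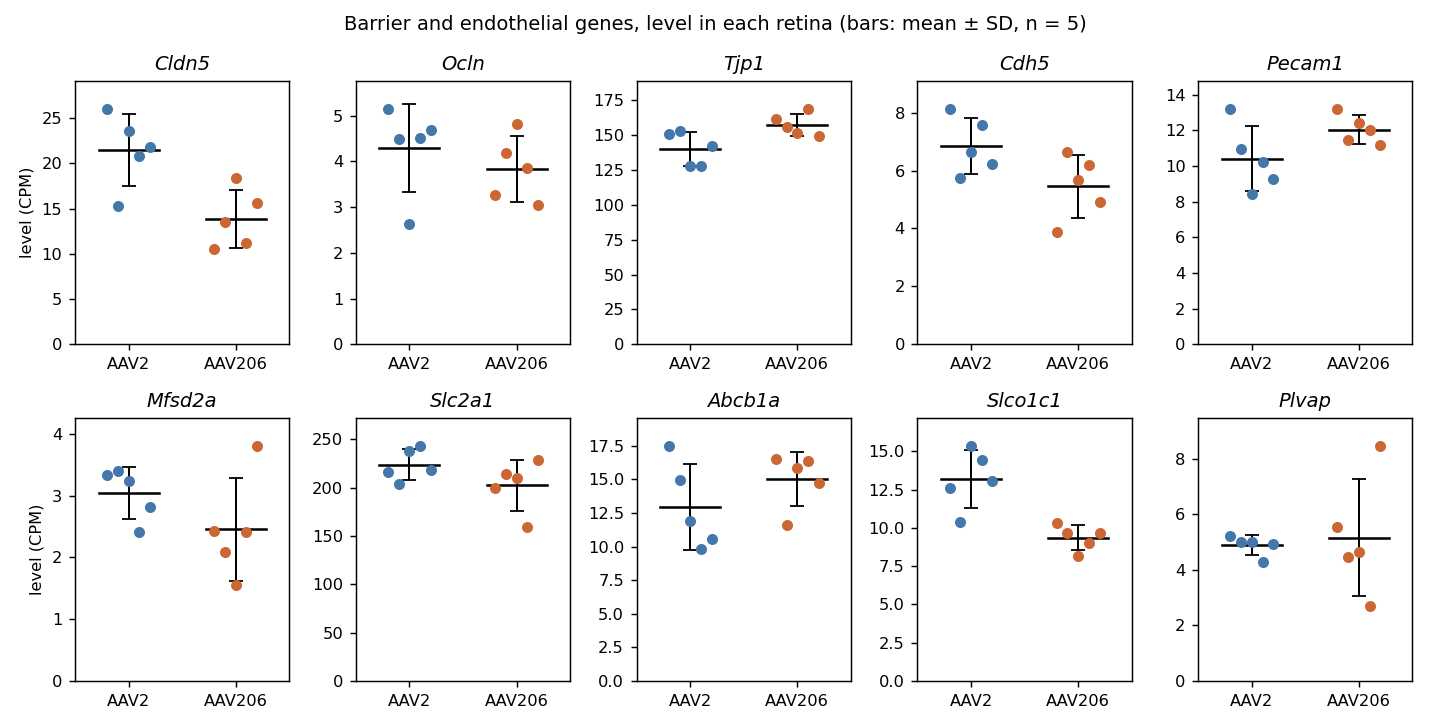
Level of each gene in CPM, a depth-scaled count explained next (linear axis from 0), in every retina, with AAV2-GFP in blue and AAV206-GFP in orange; the horizontal bar is the mean and the whiskers are 1 SD (n = 5). The Slco1c1 groups do not overlap, 3 of the AAV206-GFP retinas lie below all AAV2-GFP retinas for Cldn5, and the AAV206-GFP retinas spread from 2.68 to 8.46 CPM for Plvap.

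The CPM scale divides each count by a library size adjusted with the trimmed mean of M values (TMM). Total counts per library lay between 10989843 and 12752604, and 3 counts corresponded to 0.231 to 0.273 CPM. None of the 10 genes came near that floor, although Mfsd2a had as few as 18 counts in a library, Plvap 30 and Ocln 34. Per kilobase of exon, averaged over the 10 retinas, Slc2a1 was highest at 60.8 ± 6.73 CPM per kilobase, followed by Tjp1 at 19.1 ± 1.70 and Cldn5 at 12.5 ± 3.74 (SD, n = 10). The library ranges of Slc2a1 and Tjp1 did not overlap, those of Tjp1 and Cldn5 did, and Cldn5 was separate from all genes below it. Abcb1a (2.55), Plvap (2.53), Slco1c1 (2.17), Pecam1 (1.80), Cdh5 (1.46), Mfsd2a (1.22) and Ocln (0.962) followed, and each of these overlapped the next in the order. Slc2a1 and Tjp1 are also made by photoreceptors, glia and RPE, so their levels are not those of endothelium alone.

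The tight junction genes came first. Cldn5 (ENSMUSG00000041378, GRCm38 chromosome 16, 18776847 to 18778262, plus strand) is a short gene with 1416 exon bases. Its levels were 25.98, 15.3, 23.6, 20.8 and 21.8 CPM in AAV2-GFP replicates 1 to 5 and 10.5, 13.5, 18.3, 11.2 and 15.6 CPM in AAV206-GFP replicates 1 to 5. All 5 AAV206-GFP retinas lay below the AAV2-GFP mean, yet the groups overlapped, because AAV2-GFP replicate 2 was lower than 2 AAV206-GFP retinas. Mean Cldn5 went from 21.5 ± 3.98 to 13.8 ± 3.23 CPM (SD, n = 5), and the estimated log2 difference was -0.64, standard error 0.16 (edgeR adjusted p = 0.0192). Without AAV206-GFP replicate 4 the edgeR adjusted p was 0.0526, and after removing the trend with gene length and GC content described below it was 0.0862, with a log2 fold change of -0.44.

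The 250 bases before the RefSeq start site of the 2 called genes are shown because these are the promoter-proximal sequences of the genes that differed. Both are on the plus strand of GRCm38.p6, Cldn5 at chr16:18776597-18776846 and Slco1c1 at chr6:141524104-141524353. Capitals mark letters of 5 motifs searched on both strands, GGAAGT for ETS, CTTTGA for TCF/LEF, GTAAACA for FOX, ACAATG for SOX and TGATAAG for GATA factors.
Cldn5: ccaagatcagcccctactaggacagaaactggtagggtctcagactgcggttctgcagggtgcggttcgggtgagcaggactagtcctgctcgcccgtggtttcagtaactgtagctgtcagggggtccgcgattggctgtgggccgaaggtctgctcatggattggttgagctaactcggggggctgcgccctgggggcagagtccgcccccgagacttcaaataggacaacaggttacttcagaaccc
Slco1c1: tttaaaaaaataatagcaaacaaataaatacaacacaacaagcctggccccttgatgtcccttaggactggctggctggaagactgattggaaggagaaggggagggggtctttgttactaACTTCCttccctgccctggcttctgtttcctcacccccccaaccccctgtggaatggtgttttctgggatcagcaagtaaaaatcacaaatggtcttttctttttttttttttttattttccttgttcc
The Cldn5 window held none of the motifs, and the Slco1c1 window held 1 ETS match, on the minus strand, starting 129 bases before the start site. Of all 32851 promoter windows in the RefSeq table, 19.7% held the ETS letters, 13.8% the TCF/LEF letters, 10.7% the SOX letters, 3.17% the FOX letters and 2.05% the GATA letters. GC content was 59.6% in the Cldn5 window and 42.8% in the Slco1c1 window, beside a median of 52.4% over all windows. Of the 10 genes, 7 had a window in the table, and the TCF/LEF letters were found upstream of Mfsd2a (1 match) and of the RefSeq start of Abcb1a (2 matches, with 1 FOX match). The Abcb1a window, at chr5:8566841-8567090, is not next to the GENCODE start of the gene, at 8660077 on the plus strand. These matches are letters in a window and were not tested as binding sites.

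Tjp1 (ENSMUSG00000030516, chromosome 7, 65296165 to 65527781, minus strand) encodes a zonula occludens scaffold that ties claudins to actin. Its levels were 151, 153, 128, 128 and 142 CPM with AAV2-GFP and 162, 156, 152, 169 and 149 CPM with AAV206-GFP, in the order of the replicate numbers. Every AAV206-GFP retina was above the AAV2-GFP mean, and 3 of them were above every AAV2-GFP retina. The log2 fold change was 0.17 with a 95% interval of 0.025 to 0.31, which did not pass adjustment (edgeR unadjusted p = 0.0241, adjusted p = 0.115). Ocln (ENSMUSG00000021638, chromosome 13, 100496507 to 100552718, minus strand), a membrane protein that regulates the tight junction, ranged from 2.62 to 5.14 CPM with AAV2-GFP and from 3.05 to 4.82 CPM with AAV206-GFP. Its log2 fold change was -0.16 with an interval of -0.61 to 0.30 (edgeR adjusted p = 0.667). Ocln had 34 to 57 counts per library, and without AAV2-GFP replicate 3, its lowest retina, the log2 fold change was -0.30 (edgeR adjusted p = 0.376).

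The adhesion genes Cdh5 and Pecam1 mark endothelial cells, and their estimates had opposite signs. Cdh5 (ENSMUSG00000031871, chromosome 8, 104101625 to 104144511, plus strand) encodes VE-cadherin, the adhesion protein of endothelial adherens junctions. Its levels were 8.12, 5.74, 6.64, 7.56 and 6.22 CPM with AAV2-GFP and 3.86, 6.64, 5.68, 6.18 and 4.91 CPM with AAV206-GFP. All AAV206-GFP retinas lay below the AAV2-GFP mean and 3 below its lowest retina, but the log2 fold change of -0.33 (95% interval -0.70 to 0.042) did not pass (edgeR adjusted p = 0.231). Pecam1 (ENSMUSG00000020717, chromosome 11, 106654217 to 106750628, minus strand) encodes an adhesion molecule of endothelium, platelets and leukocytes. Its levels were 13.2, 10.9, 8.41, 10.2 and 9.29 CPM with AAV2-GFP and 13.2, 11.5, 12.4, 12.0 and 11.2 CPM with AAV206-GFP. All AAV206-GFP retinas were above the AAV2-GFP mean, and the log2 fold change of 0.21 (95% interval -0.065 to 0.49) did not pass (edgeR adjusted p = 0.303). AAV2-GFP replicate 1 had the highest level of its group for Cldn5, Cdh5 and Pecam1 alike, and also for Ocln, Abcb1a and Plvap. In that retina 12 leukocyte and platelet markers summed to 101 CPM, against 9.14 to 16.1 CPM in the other AAV2-GFP retinas and 6.35 to 12.0 CPM with AAV206-GFP. Without it Cldn5 still passed, with a log2 fold change of -0.56 (edgeR adjusted p = 0.0310), and Cdh5 and Pecam1 still did not.

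Among the transporters Slco1c1 (ENSMUSG00000030235, chromosome 6, 141524368 to 141570177, plus strand) was the 1 gene of the 10 whose groups did not overlap, beside 9.78% of all tested genes. Its levels were 12.6, 10.4, 15.4, 14.4 and 13.04 CPM with AAV2-GFP and 10.3, 9.65, 8.17, 9.04 and 9.64 CPM with AAV206-GFP. The highest AAV206-GFP retina and the lowest AAV2-GFP retina were nearly level. Mean Slco1c1 went from 13.2 ± 1.89 to 9.37 ± 0.806 CPM (SD, n = 5), and the estimated log2 difference was -0.49, standard error 0.13 (edgeR adjusted p = 0.0224). The call was lost without AAV2-GFP replicate 3 (edgeR adjusted p = 0.0526), AAV2-GFP replicate 4 (0.0645), AAV206-GFP replicate 3 (0.0604) or AAV206-GFP replicate 4 (0.0514), and with the length and GC trend removed it held (0.0152).

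The other transporters did not pass. Slc2a1 (ENSMUSG00000028645, chromosome 4, 119108711 to 119137983, plus strand), the glucose transporter of both retinal barriers, was at 216, 204, 238, 243 and 218 CPM with AAV2-GFP and 199, 214, 210, 159 and 228 CPM with AAV206-GFP. AAV206-GFP replicate 4 was the lowest of the 10 retinas, and the groups otherwise overlapped widely. The log2 fold change was -0.15 with an interval of -0.33 to 0.036 (edgeR adjusted p = 0.280). Mfsd2a (ENSMUSG00000028655, chromosome 4, 122946850 to 122961188, minus strand), a lysolipid transporter that restrains transcytosis in barrier endothelium, was at 3.34, 3.41, 3.24, 2.41 and 2.81 CPM with AAV2-GFP. With AAV206-GFP it was at 2.43, 2.09, 1.55, 2.42 and 3.81 CPM, so that the lowest and the highest retina of all 10 were both in this group. Its log2 fold change was -0.30 with an interval of -0.84 to 0.23 (edgeR adjusted p = 0.457). Abcb1a (ENSMUSG00000040584, chromosome 5, 8660077 to 8748575, plus strand), the efflux pump P-glycoprotein, ranged from 9.82 to 17.5 CPM with AAV2-GFP and from 11.6 to 16.5 CPM with AAV206-GFP. The log2 fold change was 0.22 with an interval of -0.12 to 0.55 (edgeR adjusted p = 0.384). Abcb1a carried fractional counts in all 10 libraries, as when reads are divided between similar genes, so its level is uncertain. Its close relative Abcb1b was low, at 0.921 ± 0.750 and 1.29 ± 0.596 CPM (SD, n = 5), and also had fractional counts in all 10 libraries. The log2 fold change of Abcb1b was 0.50 with an interval of -0.52 to 1.51 (edgeR adjusted p = 0.530).

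Plvap (ENSMUSG00000034845, chromosome 8, 71497765 to 71511752, minus strand) builds the diaphragms of fenestrae and is a marker of vessels without a barrier, such as those of the choroid. Its levels were 5.23, 5.02, 5.02, 4.27 and 4.94 CPM with AAV2-GFP and 5.54, 4.46, 4.65, 2.68 and 8.46 CPM with AAV206-GFP. Mean Plvap was 4.89 ± 0.368 against 5.16 ± 2.12 CPM (SD, n = 5), and the log2 fold change was 0.078 with an interval of -0.43 to 0.58 (edgeR adjusted p = 0.863). The coefficient of variation came to 7.52% in the AAV2-GFP group and to 41.0% in the AAV206-GFP group, where replicate 4 was the lowest retina and replicate 5 the highest, at 30 and 100 counts. The sign of the difference turned to -0.17 without AAV206-GFP replicate 5. Choroid and melanocyte markers, 8 genes in all, summed to 17.9 to 29.0 CPM with AAV2-GFP and to 14.6 to 23.2 CPM with AAV206-GFP. In AAV206-GFP replicates 4 and 5 they were the lowest and the highest of that group, at 14.6 and 23.2 CPM, in the same order as Plvap, and their part in the spread of Plvap was not tested.

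**Figure D2:**
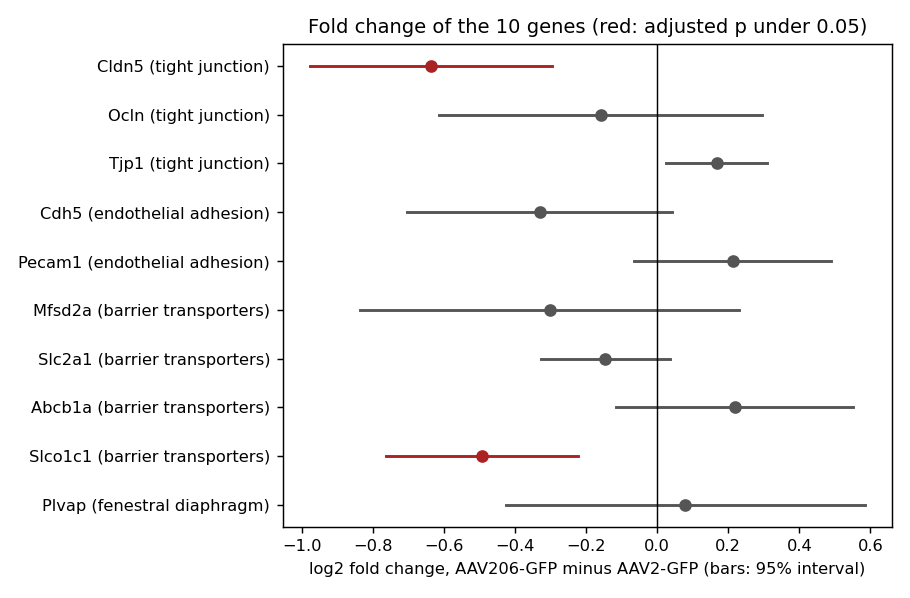
Log2 fold change of the 10 genes, AAV206-GFP minus AAV2-GFP, with 95% intervals from edgeR's quasi-likelihood fit to 5 retinas a group; red marks an adjusted p under 0.05. The intervals of Cldn5 (-0.98 to -0.30) and Slco1c1 (-0.76 to -0.22) lie below 0, and that of Tjp1 (0.025 to 0.31) lies above 0 but did not pass adjustment.

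The 10 genes did not move as a unit from retina to retina. Over the 45 pairs, correlations of the deviations of log2(CPM + 1) from the group means, across 10 libraries that share their depth and scaling, ran from -0.79 (Tjp1 with Slc2a1) to 0.72 (Pecam1 with Abcb1a). Without AAV2-GFP replicate 1 the same pairs had -0.82 and 0.46, and the highest of the 45 was Slc2a1 with Plvap at 0.71 (0.69 with it). Cldn5 and Cdh5 had 0.46, and 0.36 without that retina. The values of Pecam1 depended on it, going from 0.090 to -0.36 with Cdh5 and from -0.076 to -0.61 with Cldn5. The genes closest to Cldn5 by this measure, among 11905 with a mean of at least 5 CPM, were Emc6 (Pearson 0.94, Spearman 0.95), Nfkbia (0.93 and 0.92) and Ythdf2 (0.92 and 0.89). For Slco1c1 they were Aldh2 (0.93 and 0.92), Bad (0.93 and 0.95) and Ajap1 (0.93 and 0.92), and for Plvap they were Prr14 (0.95 and 0.77), Ppm1n (0.95 and 0.82) and Amacr (0.94 and 0.79). These are the highest of many values over 10 retinas and are given as a description.

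Among 30 further endothelial identity genes, 25 were tested. Of these, 5 were lower and 2 higher with AAV206-GFP in the edgeR test, beside 5.3% and 5.95% of all tested genes. Of the 25, 22 had negative log2 fold changes, beside 8048 of all 15539 tested genes, and the median was -0.31 beside -0.0095. The list was chosen with earlier results of these data known, so these values are a description. The summed level of the list overlapped between the groups, at 633 to 758 CPM (median 654) with AAV2-GFP and 608 to 670 CPM (median 660) with AAV206-GFP. That sum is weighted to its most abundant genes, Podxl (means of 226 and 230 CPM), Kdr and Flt1, and says little of the low ones. Whether the RNA of these abundant genes came from endothelium alone was not tested. Kdr, a receptor for vascular endothelial growth factor, fell from 154 ± 5.72 to 127 ± 6.92 CPM (SD, n = 5; log2 fold change -0.28, edgeR adjusted p = 0.00635). Flt1, the second such receptor, rose from 90.5 ± 3.52 to 129 ± 5.57 CPM (log2 fold change 0.51, edgeR adjusted p = 3.7e-05). Neither receptor gene had overlapping groups, beside 9.78% of all tested genes without overlap. The sphingosine phosphate receptor S1pr1 had a log2 fold change of -0.48 (edgeR adjusted p = 0.00696), the transcription factor Sox18 -1.10 (0.0252), the adhesion receptor Adgrl4 -0.60 (0.0276) and the nitric oxide synthase Nos3 -0.61 (0.0320). Acvrl1, a receptor of the BMP family, was named after its values were seen and had 0.55 (edgeR adjusted p = 0.0419). When each of the 10 libraries was left out in turn, Kdr, Flt1 and S1pr1 passed in all, Adgrl4 in 7, Sox18 in 5, Acvrl1 in 4 and Nos3 in 3. Without AAV2-GFP replicate 1, which had the highest summed level of the list, the median was -0.22, and with no filter on low counts, which brings in the low genes of the list, it was -0.48.

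Set against this endothelial background, the 10 genes took another order. Averaged over the 25 identity genes, log2 CPM stood at 3.13 ± 0.24 in AAV2-GFP retinas and at 2.79 ± 0.14 in AAV206-GFP retinas (SD, n = 5). Relative to that mean, the difference of Cldn5 between the groups was -0.31 and that of Slco1c1 was -0.15 log2 units, and the groups of both genes overlapped. Cdh5 differed by -0.0079 and Mfsd2a by -0.021. The identity mean itself differed by -0.34, and this raises every difference on this scale. Pecam1 differed by 0.56, at -0.0075 to 0.46 with AAV2-GFP and 0.50 to 0.99 with AAV206-GFP, so that its groups did not overlap. In CPM the log2 fold change of Pecam1 was 0.21 (edgeR adjusted p = 0.303). The share of all genes without overlap on the relative scale was not counted, so this is not read as particular to Pecam1. Abcb1a differed by 0.57, Plvap by 0.32 and Tjp1 by 0.51, with overlap in each. These values are descriptions, since the mean gives each listed gene the same weight and moves with the low ones.

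Of 20 further transporters of the barrier 18 were tested, and 4 of these were higher and 0 lower in the edgeR test, beside 5.95% and 5.3% of all tested genes. The median log2 fold change was 0.15, beside -0.0095 over all tested genes. Slco2b1 and Slc38a3, named after their values were seen, had negative estimates with unadjusted edgeR p of 0.0466 and 0.0135, and DESeq2 called Slc38a3 as lower (adjusted p = 0.0394). Slc7a5, which carries large neutral amino acids, rose from 45.9 ± 2.72 to 71.3 ± 5.06 CPM (SD, n = 5; log2 fold change 0.64, edgeR adjusted p = 3.4e-05). Slc7a1, a carrier of cationic amino acids, rose from 23.1 ± 2.79 to 43.5 ± 6.02 CPM (log2 fold change 0.91, edgeR adjusted p = 6.7e-05). The taurine carrier Slc6a6 had a log2 fold change of 0.49 (edgeR adjusted p = 0.00109) and the transferrin receptor Tfrc 0.40 (0.00115). In none of these 4 genes did the groups overlap, beside 9.78% of all tested genes without overlap. All 4 passed in every alternative that was run. Retinal neurons, glia and RPE also make such transporters, so the increases are not assigned to endothelium.

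The other vascular and mural lists held 0 to 2 calls each, beside 5.95% of all tested genes called higher and 5.3% called lower. Among 19 tested junction genes of 21, Ctnnd1, a catenin that binds cadherins, rose (log2 fold change 0.36, edgeR adjusted p = 0.00327) and Jam3, a junctional adhesion molecule, fell (-0.37, 0.0323), with a median of -0.016. Jam3 carried fractional counts in 8 libraries and passed in 5 of the 10 leave-one-out fits. Among 18 tested genes of 20 for norrin and Wnt signalling, the coreceptor Lrp6 rose (0.26, edgeR adjusted p = 0.0359), and it passed in 3 of the 10 leave-one-out fits. The median of this list was -0.14, and 14 estimates were negative and 4 positive, beside 8048 negative of all 15539 tested genes. The ligand gene Ndp had -0.34 (edgeR adjusted p = 0.163) and the receptor gene Fzd4 had -0.0025 (0.990). Among 9 tested caveolar and permeability genes of 11, Igfbp3, a binding protein of insulin-like growth factors, rose from 1.72 ± 1.07 to 4.65 ± 1.00 CPM (SD, n = 5; log2 fold change 1.44, edgeR adjusted p = 0.0111). Without AAV2-GFP replicates 1 and 4 together the edgeR adjusted p of Igfbp3 was 0.0608. Cav1, the coat protein of caveolae, had -0.23 (edgeR adjusted p = 0.0824). Of 10 endothelial activation genes 6 were tested and 0 passed with edgeR, DESeq2 or limma-voom, and several estimates moved with AAV2-GFP replicate 1, the retina with the high leukocyte markers. The list summed to 164 CPM there, to 97.5 to 131 CPM in the remaining AAV2-GFP retinas and to 97.5 to 115 CPM with AAV206-GFP. All 6 estimates were negative with that retina, with a median of -0.52, and the median was -0.14 without it. Vcam1, a leukocyte adhesion molecule, was at 17.1 ± 10.3 and 9.80 ± 1.76 CPM (SD, n = 5), with log2 fold changes of -0.80 (edgeR adjusted p = 0.0793) and, without that retina, -0.38 (0.178). Icam1, another such molecule, was at 2.05 ± 2.77 and 0.749 ± 0.445 CPM, with -1.43 (edgeR adjusted p = 0.190) and -0.16 (0.867). Lcn2, a secreted protein of inflamed tissue named after its values were seen, changed sign. It was at 20.5 CPM in AAV2-GFP replicate 1, at 1.61 to 2.98 CPM in the other AAV2-GFP retinas and at 3.21 to 4.83 CPM with AAV206-GFP. Its log2 fold change was -0.47 with all retinas (edgeR adjusted p = 0.626) and 0.95 without that one (0.0186). At an unadjusted edgeR p under 0.05 there were 2 genes with all retinas, Vcam1 and Socs3. Among 12 tested pericyte and smooth muscle markers of 15, Vtn alone passed (-0.26, edgeR adjusted p = 0.0184; in 8 of the 10 leave-one-out fits and not with the length and GC trend removed), and Pdgfrb, the pericyte receptor, had -0.053 (0.759). Vtn averaged 696 and 580 CPM, beside 19.1 and 18.4 CPM for Pdgfrb, and its fall is not assigned to pericytes.

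**Figure D3:**
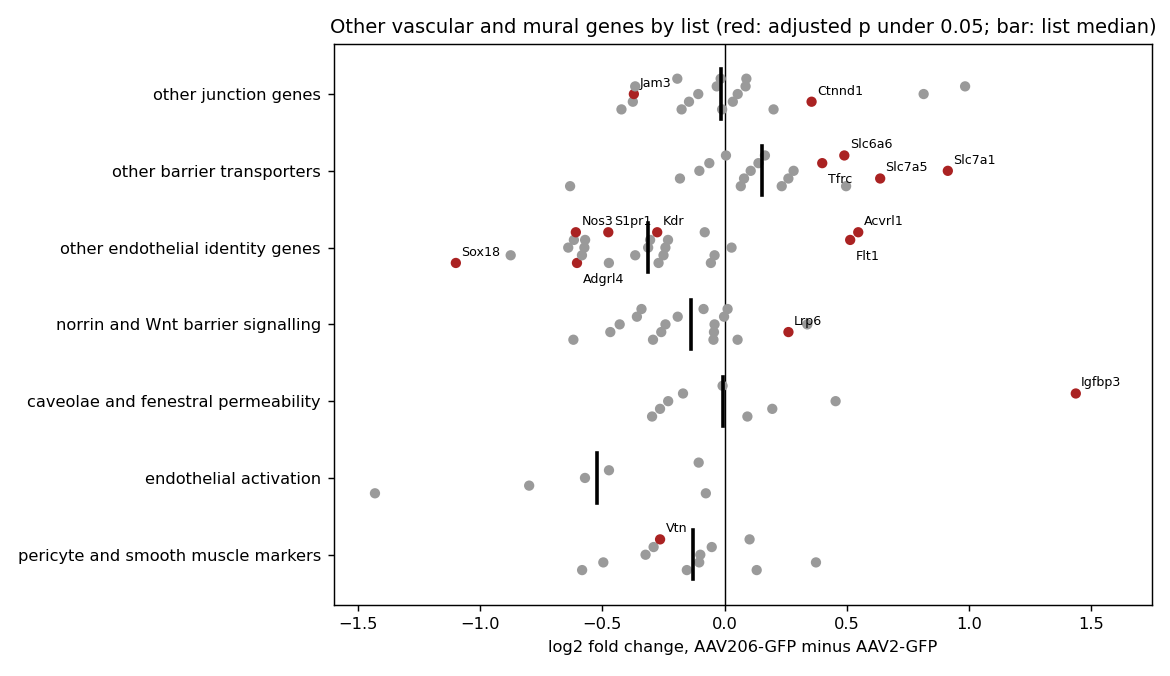
Log2 fold change, AAV206-GFP minus AAV2-GFP, of every tested gene in 7 further lists; each point is a gene, red and named where the edgeR adjusted p was under 0.05, and the black bar is the median of the list. The endothelial identity list lies mostly left of 0 with a median of -0.31, while 4 of the barrier transporters are red on the right.

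Fold changes over the whole transcriptome followed exon length and GC content. With genes ranked by exon length in 5 equal bins, the median log2 fold change of all tested genes rose from -0.12 in the shortest bin (up to 2383 bases) through -0.059, -0.025 and 0.018 to 0.075 in the longest (from 7490 bases). In the shortest bin 2.84% of genes were called higher and 7.82% lower, and in the longest 10.6% and 2.03%. In 5 equal bins of GC content the medians were 0.031, 0.036, 0.0040, -0.036 and -0.090 from the lowest to the highest. Cldn5 falls in the shortest bin and has a GC content of 60.5%, whereas Slco1c1 has 5186 exon bases and 43.1%. The 3 longest of the 10 genes, Abcb1a, Pecam1 and Tjp1, all had positive estimates. With the trend of each library on length and GC removed, an alternative chosen after it was seen, Cldn5 had -0.44 (edgeR adjusted p = 0.0862), Slco1c1 -0.52 (0.0152), Kdr -0.35 (0.00178), Flt1 0.41 (0.000326) and the identity list a median of -0.35. Whether RNA quality or library preparation differed between the groups was not tested.

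**Figure D4:**
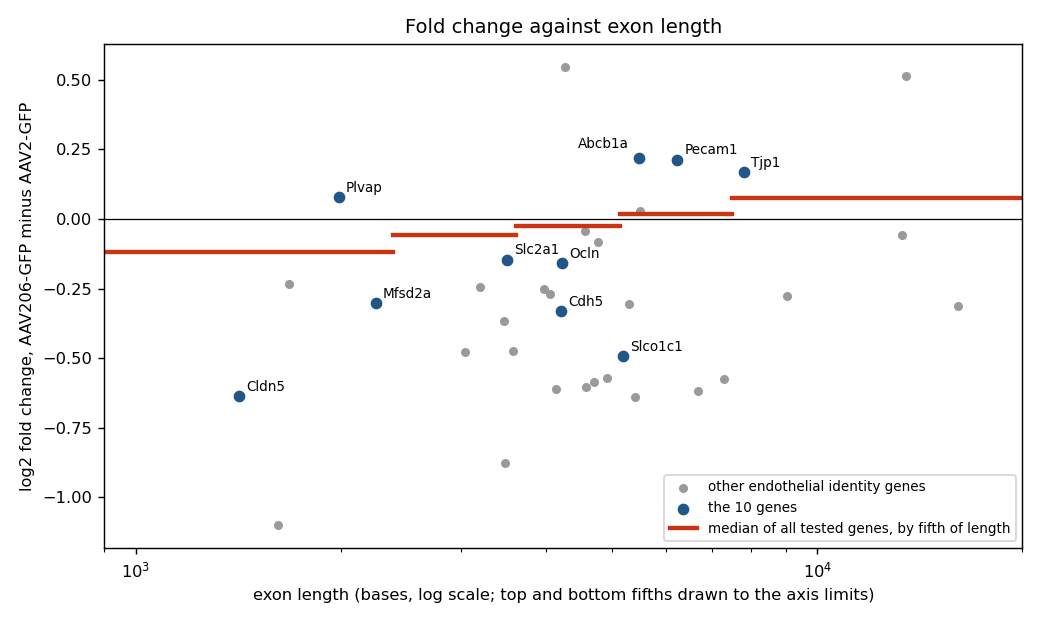
Log2 fold change, AAV206-GFP minus AAV2-GFP, against exon length on a log axis for the 10 genes (blue, named) and the 25 tested endothelial identity genes (grey); red bars are the medians of all tested genes in 5 equal bins of length. The red bars climb from -0.12 to 0.075, and Cldn5 and Slco1c1 both lie below the bar of their bin.

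Markers of other cells also moved between the groups. Erythrocyte markers, 6 genes, summed to 67.7 to 85.6 CPM with AAV2-GFP and to 100 to 319 CPM with AAV206-GFP, without overlap. Of the 5 tested, 4 passed as higher, beside 5.95% of all tested genes. The 6 lens markers summed to 14.3 to 32.9 and 1.70 to 16.5 CPM. The 12 RPE markers summed to 223 to 325 and 171 to 384 CPM, of which Trpm1, also a bipolar cell gene, made up most, while Rpe65 averaged 1.74 and 1.35 CPM. That sum therefore says little of the other RPE markers. Of the 11 tested, 8 had negative and 3 positive log2 fold changes, with a median of -0.42 beside -0.0095 over all tested genes. Rgr passed as lower (-0.79, edgeR adjusted p = 0.0328), in 3 of the 10 leave-one-out fits, beside 5.3% of all tested genes. No marker of these lists was at 0 in all libraries. The 11 retinal neuron markers, by far the highest of these sums, lay at 42411 to 45675 and 46457 to 50658 CPM. The part of blood, lens or RPE in the results of the 10 genes was not tested.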

How the data were processed

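Samples were grouped by the vector named in their titles, 5 retinas each for AAV2-GFP and AAV206-GFP, and none was left out. The p-values set the difference between groups against the variation among retinas within a group. That variation holds counting error and library preparation as well as spread between mice. The authors deposited expected counts per gene, unscaled, in 1 table; 5.95% of values carried decimals. The submitters' processing notes name STAR 2.7.10b, RSEM 1.3.1 and mm10; the annotation is not given in the sources used here. Symbols, gene positions and union exon lengths came from GENCODE M21 (GRCm38), which named 98.4% of tested genes; promoter windows came from RefSeq (GRCm38.p6). The strand setting of the counting is not given, so reads of genes that overlap on opposite strands cannot be told apart.

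Counts were rounded and fitted with edgeR 4.0.16 in R 4.3.3 (filterByExpr with a minimum count of 10, TMM, quasi-likelihood F test, no covariates), with DESeq2 1.42.0 and limma-voom (limma 3.58.1) as alternatives. Standard errors were recovered from the F statistic and the log2 fold change. The procedure was also run on simulated counts that held no length or GC trend, so that run does not bear on the trend seen here. Libraries of a group differed by 3.74 to 23.1 in chi-square per degree of freedom, so none was treated as a duplicate. Floors of 3 counts cover counting error only, since reads without molecular identifiers are not independent molecules. The 10 genes and 18 gene lists were chosen with earlier results of these data known. All 10 genes are named, with up to 6 called genes per list by p-value and the 3 most similar patterns of Cldn5, Plvap and Slco1c1; others were named after their values were seen. The relative levels are log2 CPM minus the mean over the identity genes with at least 1 CPM. The length and GC offset was a loess fit per library.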

Additional observations from a re-analysis of the deposited data

Results flagged for a closer look

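In 48 groups of 5 retinas, the levels of the 10 genes and the summed levels of 14 further lists were examined for a retina far from the rest of its group (Dixon's ratio above 0.71), which chance would reach in about 2.4. It was reached in 4. Ocln in AAV2-GFP replicate 3 was low, at 2.62 CPM against 4.48 to 5.14 CPM in the other AAV2-GFP retinas (ratio 0.738). The summed leukocyte and platelet markers in AAV2-GFP replicate 1 were high, at 101 CPM against 9.14 to 16.1 CPM (ratio 0.925). The summed endothelial identity genes in the same retina were high, at 758 CPM against 633 to 658 CPM (ratio 0.797). The summed astrocyte and Müller endfoot genes in AAV206-GFP replicate 4 were low, at 2299 CPM against 2595 to 2696 CPM (ratio 0.745). In that retina Slc2a1 and Plvap were also at their lowest of all 10.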

How the results depend on the processing

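Cldn5 and Slco1c1 kept their direction in all 10 leave-one-out fits and 11 other alternatives, and the remaining 8 genes stayed short of the threshold in each. Plvap reversed, to -0.0036 with limma-voom and, among leave-one-out fits ranging from -0.17 to 0.24, without AAV206-GFP replicate 5. When 1 library was left out, 0 to 2 of the 10 genes passed, 0 to 2 as lower, and genes called over the whole table ranged from 991 to 1912 (genes called higher 560 to 1002, genes called lower 431 to 910), beside 1747, 924 and 823; the count fell by over 1.5 times without AAV2-GFP replicate 4 (991), AAV206-GFP replicate 2 (1061) or AAV206-GFP replicate 4 (1056). Without AAV2-GFP replicates 1 and 4 together, left out because earlier results described both as high for immune genes, 985 genes passed (530 higher, 455 lower) and 0 of the 10, with edgeR adjusted p of 0.0711 for Cldn5 and 0.0726 for Slco1c1. With the length and GC offset 1 of the 10 passed, as lower. With the replicate number as a block, 1085 genes passed (605 higher, 480 lower) and 1 of the 10, as lower; the adjusted p of Slco1c1 was 0.0622. Deviations of same-numbered retinas correlated at -0.052 to 0.040 and 1 of 10 libraries correlated best with its own number, so the numbers are not taken to pair the mice. Ocln, Mfsd2a and Plvap had the fewest counts, at 18 to 100 per library; counting error and spread between mice were not separated.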
